A study of Drosophila melanogaster with 8 samples.

Results

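*Sxl*, *tra*, *tra2*, *dsx*, *fru*, *ix*, *vir*, *fl(2)d*, *her* and *dsf* direct sex determination and courtship in *Drosophila melanogaster*. These 10 genes were taken by name, with earlier results of these data known. They were matched by FlyBase identifier to the table of counted reads. All 10 were among its 17490 genes, and all 10 were among the 13536 genes that passed the filter on low counts and were tested.

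Transcripts were measured by RNA sequencing of heads from 3- to 5-day-old flies of 4 groups, females and males of *Obp56h*-/- and of *CSB*, with 2 replicate pools of flies in each group. *CSB* is the *Canton S-B* control line. In *Obp56h*-/- flies, made in the *CSB* background with CRISPR/*Cas9*, the odorant binding protein gene *Obp56h* was replaced by a cassette with *DsRed* under the eye promoter *3XP3*. The deletion was studied in a single line, so line and deletion cannot be told apart, and the *CSB* flies carried no such cassette.

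In the fly, the count of X chromosomes switches on *Sxl* in females, and its protein keeps *Sxl* on by directing the splicing of its own transcripts. SXL also directs female splicing of *tra*, and TRA with TRA2 directs female splicing of *dsx* and *fru*. The resulting sex-specific DSX and FRU transcription factors shape the body and the nervous system, and male FRU in neurons is required for courtship. The choice is made by splicing, so both sexes transcribe these genes. The data are reads summed over all exons of a gene, and they do not say which splice form was present. In whole heads, fewer cells of a type and less RNA per cell cannot be told apart.

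The libraries held between 10127941 and 25918919 counted reads, and 3 reads, taken as the smallest value a library can show, were between 0.122 and 0.276 CPM, which covers counting error only. *Obp56h* had at most 1 read in each *Obp56h*-/- library and at least 54 in each *CSB* library. *lncRNA:roX1*, a male dosage compensation RNA, was between 2627 and 3251 CPM in males and between 13.2 and 16.9 CPM in females. The head markers *ninaE*, *elav*, *nSyb* and *repo* were present in every library, with a summed level between 21896 and 25265 CPM. Replicate 1 of *CSB* females and of *CSB* males stood apart from the other 6 libraries on the first principal component of log2(CPM + 0.5), with scores of -61.2 and -40.8 against 4.77 to 25.2. These 2 libraries also had the highest summed levels of 9 testis markers (10.4 and 8.30 CPM, against 2.60 to 4.23 CPM elsewhere) and of 6 ovary markers (9.02 and 5.38 CPM, against 1.17 to 2.69 CPM). Summed over 6 male accessory gland markers they were at 6.45 and 8.63 CPM, against 4.20 to 6.76 CPM elsewhere. Single markers did not all follow the sums, and the testis marker *sa* was highest in *Obp56h*-/- male replicate 2 (1.83 CPM). Some markers had few reads, such as 1 to 6 in a library for *Mst87F*. The rise was not limited to these markers. Of 8 X-linked signal genes and their partners, *upd1*, *run* and *dpn* were also highest in replicate 1 of *CSB* females and of *CSB* males. This was not so for *sisA*, *sc*, *da*, *gro* and *emc*. Summed over 5 fat body genes, 3 of them yolk protein genes, the level was between 45298 and 53127 CPM in females, 1471 CPM in *CSB* male replicate 1, and between 73.1 and 100.3 CPM in the other 3 male libraries.

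The 10 genes are protein coding and lie on all major chromosome arms of the BDGP6 assembly, 1 on X, 4 on 2R, 2 on 2L, 1 on 3L and 2 on 3R. Their structures differ widely. *fru* (FBgn0004652) spans 131314 bp on the minus strand of 3R, from 18414273 to 18545586, and has 15 annotated transcripts with 18433 bp of exon. *dsx* (FBgn0000504) spans 43086 bp on the same arm, from 7924323 to 7967408, and *Sxl* (FBgn0264270) spans 23504 bp on X, from 7074550 to 7098053, with 25 annotated transcripts. At the other end, *tra* (FBgn0003741) covers 992 bp of 3L, from 16590059 to 16591050, and *ix* (FBgn0001276) is a gene of 1 exon and 727 bp on 2R, from 11359437 to 11360163. The remaining genes are *tra2* (FBgn0003742, 2R from 14602004 to 14604337), *fl(2)d* (FBgn0000662, 2R from 13819624 to 13824553), *vir* (FBgn0003977, 2R from 23360192 to 23366355), *her* (FBgn0001185, 2L from 16677185 to 16679691) and *dsf* (FBgn0015381, 2L from 5925937 to 5939261).

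Exons of 5 of the genes overlap an exon of a gene on the opposite strand. As a share of exon, the overlap was largest for *tra*, where 74 bp (8.6%) are shared with *l(3)73Ah*. It was 169 bp (1.8%) between *dsx* and *lds*, 75 bp (1.3%) between *vir* and *Mthfs*, 25 bp (0.7%) between *dsf* and *asRNA:CR43926* and 7 bp (0.4%) between *tra2* and *Blos1*. The sources used here do not state whether reads were assigned by strand, so reads from these stretches could belong to either gene.

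Levels between genes were compared as CPM per kb of the gene length given with the counts, scaled by TMM factors. *Sxl* was highest, at 81.1 ± 16.4 (SD, n = 8 libraries), above 94.4% of the genes tested. *fl(2)d* followed at 36.5 ± 1.89 CPM per kb, *fru* at 16.8 ± 2.68 and *tra* at 13.3 ± 2.77. *tra2* (10.1 ± 0.495 CPM per kb), *her* (9.05 ± 0.762), *dsx* (8.55 ± 1.28) and *ix* (8.52 ± 1.26) lay close together. *vir* was at 4.17 ± 0.721 CPM per kb, and *dsf* was lowest at 0.780 ± 0.411, above 19.2% of the genes tested. This order held between neighbours in all 8 libraries, except that *her* was above *dsx* in 4 of 8 libraries and *dsx* above *ix* in 4 of 8. By this measure *Sxl* was at about 2.22 times the level of *fl(2)d*, and the ranges of these neighbours did not overlap. The length of *Sxl*, 9192 bp, equals the joined exons of its 25 annotated transcripts, and not the length of the transcripts present in heads. The order between genes therefore holds for this measure only.

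**Figure D1:**
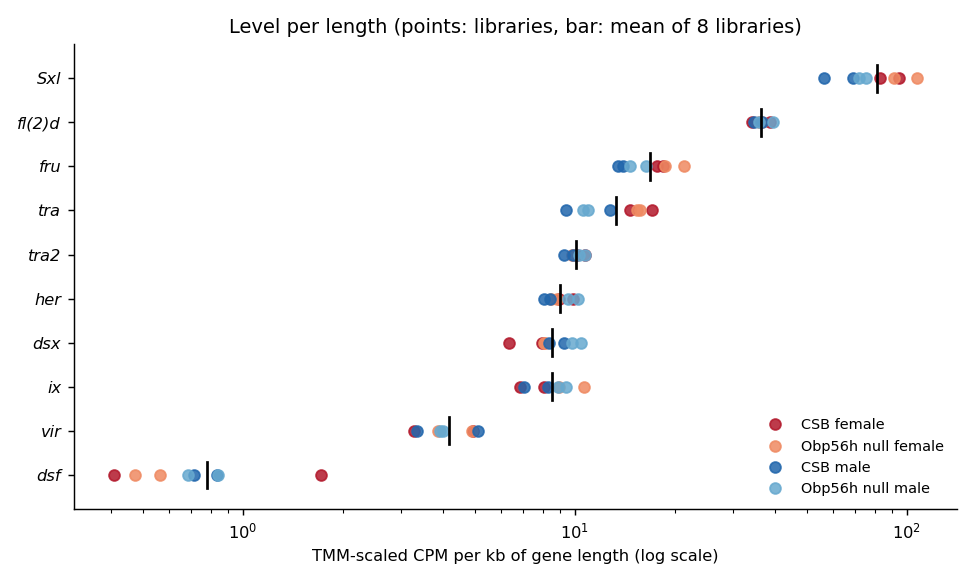
Level of each gene per kb of gene length (TMM-scaled CPM per kb, log scale) in the 8 head libraries, coloured by group, with a bar at the mean of 8 libraries. Obp56h null stands for *Obp56h*-/-. *Sxl* is highest at a mean of 81.1 and *dsf* lowest at 0.780, and *her*, *dsx* and *ix* cannot be ordered.

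**Figure D2:**
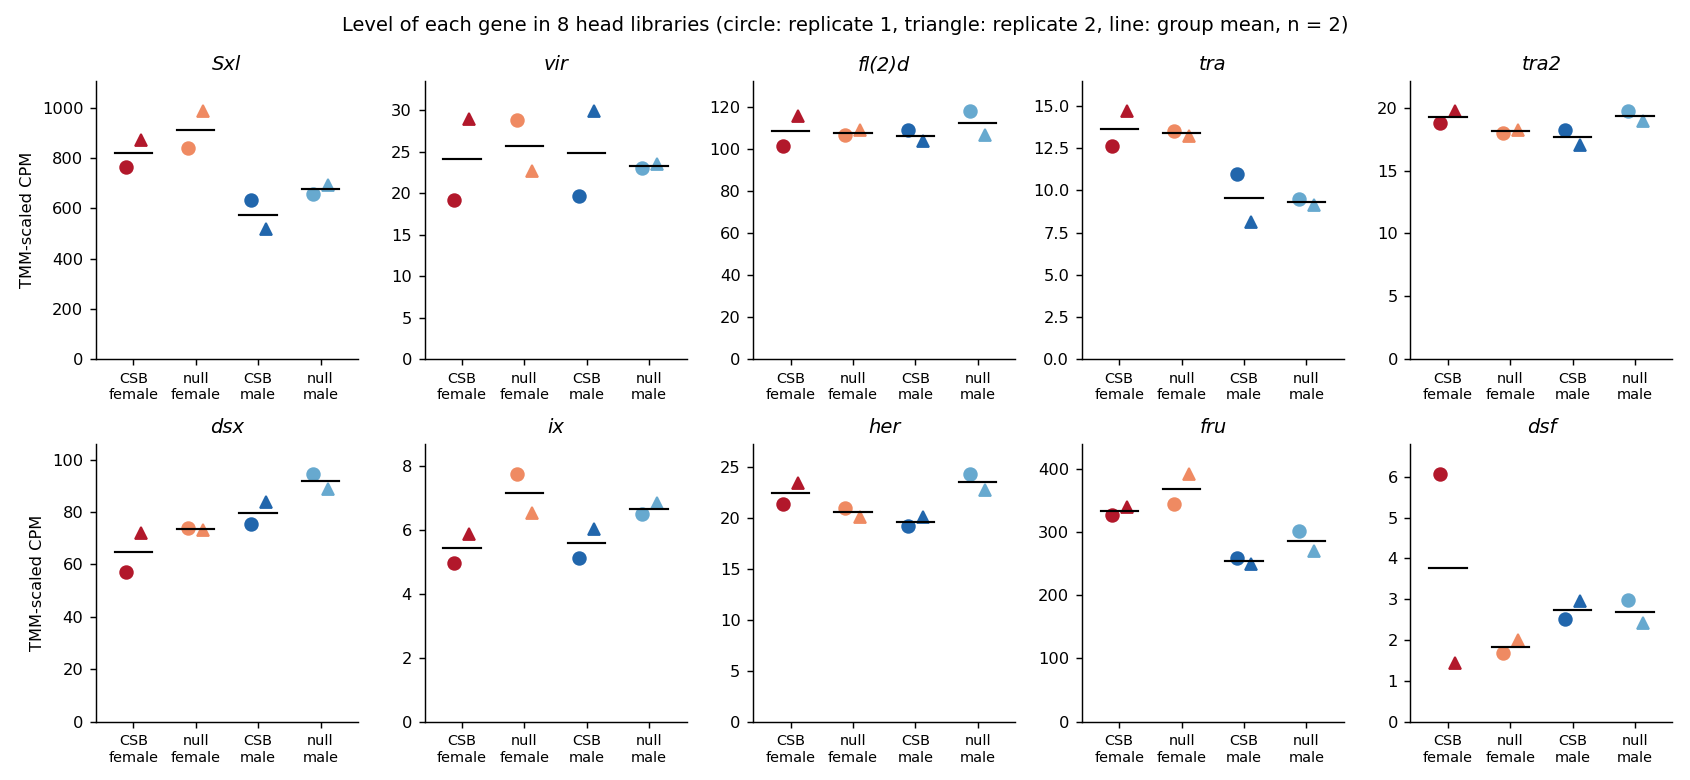
TMM-scaled CPM (vertical axis, from 0, a scale of its own for each gene) of the 10 genes in the 4 groups. Circles are replicate 1, triangles replicate 2 and lines the mean of 2 replicates. *Sxl*, *tra* and *fru* are lower in all 4 male than in all 4 female libraries, *dsx* is higher, and the other 6 genes overlap between the sexes.

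The question nearest to the role of these genes is whether their transcript levels differ between the sexes. In male heads of both genotypes together, *Sxl*, *tra* and *fru* were lower than in female heads, to 72.1%, 69.5% and 77.0% of the female level, and they passed edgeR's quasi-likelihood test. *dsx* was 1.24 times as high in males and did not pass. *tra2*, *vir*, *fl(2)d*, *her*, *ix* and *dsf* differed between the sexes by at most 0.087 on the log2 scale and did not pass. For *dsf* the 95% interval was wide, from -0.64 to 0.81. Its value was -0.39 in *CSB* and 0.56 in *Obp56h*-/-, and that of *her* was -0.19 and 0.20, so these 2 averages do not show equal levels. The 3 genes that passed, of 10, compare with 6.74% of the 13536 genes tested (278 higher and 635 lower in males). For 4 of the 10 genes, the values of the 4 male and 4 female libraries did not overlap, and this was so for 10.2% of the genes tested. The median absolute log2 fold change of the 10 genes was 0.073, and that of all genes tested 0.19. The summed level of the 5 fat body genes also differed between the sexes, as given above. These 5 genes were also listed as DSX targets or sex-biased head genes, so their sum does not measure the amount of fat body. The part of fat body in these differences was not tested.

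*Sxl*, the master switch at the top of the pathway, was at 765 and 873 CPM in replicates 1 and 2 of *CSB* females, and at 838 and 988 CPM in *Obp56h*-/- females. In males it was at 632 and 517 CPM in *CSB* and at 659 and 694 CPM in *Obp56h*-/-. Every male library was below every female library, and the lowest was replicate 2 of *CSB* males. The mean was 625 ± 76.8 CPM in males and 866 ± 93.0 CPM in females (SD, n = 4 libraries), and the log2 fold change of males over females was -0.47 (SE 0.11, adjusted p = 0.00881, edgeR). *Sxl* is X-linked, and the 2085 X-linked genes tested had a median log2 fold change of -0.08 between the sexes, with a lower quartile of -0.32 and a 5th percentile of -1.11. The difference was of like size in each genotype, -0.51 (SE 0.15) in *CSB* and -0.43 (SE 0.15) in *Obp56h*-/-, but neither passed on its own (adjusted p = 0.0875 and 0.178, edgeR).

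*vir* and *fl(2)d* encode subunits of the complex that methylates adenosines in messenger RNA, and both are needed for female splicing of *Sxl*. *fl(2)d* was among the most even of the genes, between 101 CPM in *CSB* female replicate 1 and 118 CPM in *Obp56h*-/- male replicate 1. Its log2 fold change between the sexes was 0.01 (SE 0.099). *vir* varied more, but between replicates rather than between the sexes. It was at 19.2 and 28.9 CPM in *CSB* females, 28.8 and 22.7 CPM in *Obp56h*-/- females, 19.7 and 29.9 CPM in *CSB* males, and 23.1 and 23.5 CPM in *Obp56h*-/- males. Replicate 1 of *CSB* was below replicate 2 in both sexes, by 0.59 on the log2 scale in females and 0.61 in males. These are the libraries that stood apart.

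*tra*, whose full-length protein is made in females only, had between 137 and 356 reads in a library. It was at 12.6 and 14.7 CPM in *CSB* females and at 13.5 and 13.2 CPM in *Obp56h*-/- females. It was at 11.0 and 8.12 CPM in *CSB* males and at 9.46 and 9.15 CPM in *Obp56h*-/- males, so that the sexes did not overlap. The mean was 9.43 ± 1.19 CPM in males and 13.5 ± 0.880 CPM in females (SD, n = 4 libraries), a log2 fold change of -0.52 (SE 0.14, adjusted p = 0.0244, edgeR). The difference was -0.53 in *CSB* and -0.52 in *Obp56h*-/-, and did not pass within either genotype (adjusted p = 0.240 and 0.220, edgeR). *tra2*, the RNA-binding partner of TRA that acts in both sexes, had no such difference. Its 8 values lay between 17.1 and 19.8 CPM, with a log2 fold change between the sexes of -0.02 and a 95% interval from -0.25 to 0.22.

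*dsx*, which encodes the transcription factors that direct somatic sex, was the exception in direction. It was at 57.3 and 72.0 CPM in *CSB* females, 73.7 and 73.2 CPM in *Obp56h*-/- females, 75.5 and 83.9 CPM in *CSB* males, and 94.7 and 89.0 CPM in *Obp56h*-/- males. Every male value was above every female value, though *CSB* male replicate 1 exceeded the highest female by little. The mean was 85.8 ± 8.12 CPM in males and 69.0 ± 7.87 CPM in females (SD, n = 4 libraries), and the log2 fold change of 0.31 (SE 0.11) missed the threshold (adjusted p = 0.0996, edgeR). It passed in 4 of 18 alternatives, over which its adjusted p lay between 0.0140 and 0.443. These were DESeq2 (adjusted p = 0.0354), scaling by library size alone (0.0140), a filter of 10 counts in each library (0.0334) and the fit without *CSB* male replicate 1 (0.0248).

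*ix* encodes a subunit of the Mediator complex that female DSX needs as a partner, and *her* a zinc finger protein that acts on *Sxl* and on yolk protein genes. *ix* had only 54 to 190 reads in a library. It was at 4.97 and 5.87 CPM in *CSB* females, 7.75 and 6.53 CPM in *Obp56h*-/- females, 5.11 and 6.03 CPM in *CSB* males, and 6.48 and 6.83 CPM in *Obp56h*-/- males, and the sexes overlapped. *her* lay between 19.2 and 24.3 CPM, with a mean of 21.6 ± 2.38 CPM in males and 21.5 ± 1.41 CPM in females (SD, n = 4 libraries).

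*fru*, whose male form in neurons is required for courtship, was lower in male heads. It was at 327 and 339 CPM in *CSB* females, 343 and 392 CPM in *Obp56h*-/- females, 258 and 249 CPM in *CSB* males, and 302 and 270.0 CPM in *Obp56h*-/- males. The sexes did not overlap, and the highest male library was replicate 1 of *Obp56h*-/-. The mean was 269.8 ± 23.2 CPM in males and 350.2 ± 28.9 CPM in females (SD, n = 4 libraries), a log2 fold change of -0.38 (SE 0.097, adjusted p = 0.0222, edgeR). In *CSB* the difference was -0.39 and in *Obp56h*-/- -0.36, neither of which passed (adjusted p = 0.195 and 0.241, edgeR). Of the 4 head markers, the neuronal genes *elav* and *nSyb* had log2 fold changes between the sexes of 0.06 and 0.07. *ninaE* lay between 19692 and 22165 CPM in males and between 22107 and 22793 CPM in females. *repo* lay between 49.3 and 69.5 CPM in males and between 51.5 and 63.9 CPM in females. None of the 4 markers passed.

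*dsf*, a nuclear receptor needed for sexual behavior of both sexes, was the least expressed and the most variable of the genes. It was at 6.08 and 1.45 CPM in *CSB* females, 1.67 and 1.99 CPM in *Obp56h*-/- females, 2.53 and 2.97 CPM in *CSB* males, and 2.98 and 2.41 CPM in *Obp56h*-/- males. These values rest on 35 to 66 reads in a library. *CSB* female replicate 1 was above all others, and the remaining 7 libraries lay between 1.45 and 2.98 CPM.

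**Figure D3:**
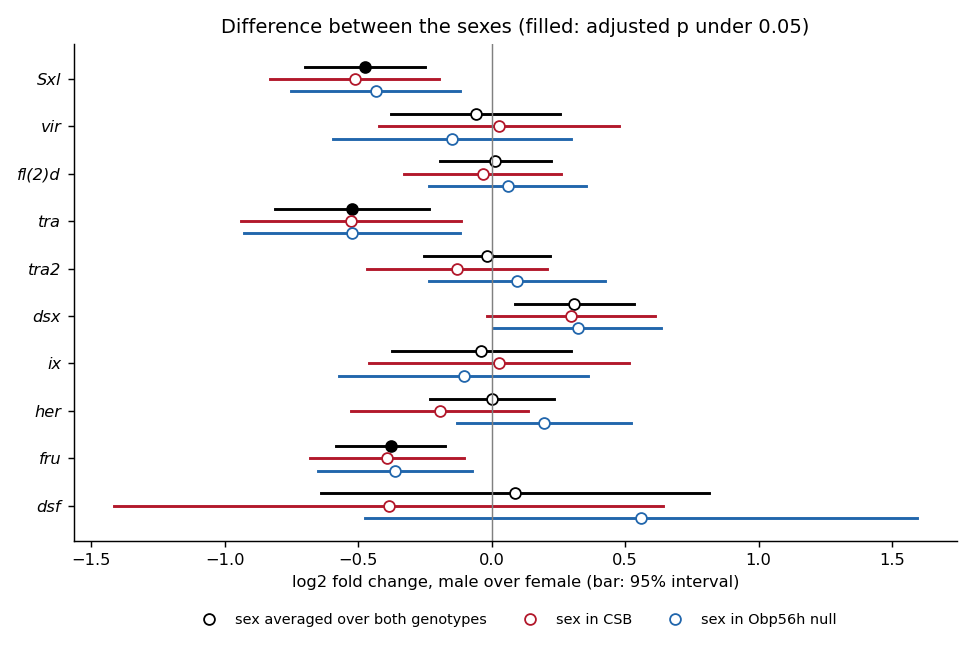
Log2 fold change of males over females with 95% intervals (horizontal axis) for the 10 genes, averaged over both genotypes (black), in *CSB* (red) and in *Obp56h*-/- (blue). Filled points have an adjusted p under 0.05, which only *Sxl* (-0.47), *tra* (-0.52) and *fru* (-0.38) have, in the average.

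In *CSB* alone, none of the 10 genes passed edgeR's test between the sexes, against 2.9% of all genes tested, and in *Obp56h*-/- alone none passed, against 3.19%. At an unadjusted p under 0.05 there were 3 of the genes in *CSB* (*Sxl*, *tra* and *fru*) and 4 in *Obp56h*-/- (these and *dsx*), against 10.3% and 11.5% of all genes tested. The likelihood ratio test called 0 of the 10 in each genotype, against 3.62% of all genes tested in *CSB* and 4.03% in *Obp56h*-/-. DESeq2 called 2 in *CSB* and 1 in *Obp56h*-/-, against 3.49% and 3.72%. Limma's voom with sample weights called 0 and 3, against 1.58% and 8.58%. Each within-genotype fit compares 2 with 2 libraries, so the absence of a call there does not show equal levels.

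The averaged calls were tied to single libraries through their adjusted p rather than their size. *Sxl* had an adjusted p of 0.0834 without *Obp56h*-/- female replicate 2, of 0.0885 without *Obp56h*-/- male replicate 1 and of 0.0782 without *Obp56h*-/- male replicate 2. *fru* was lost without any 1 of the 4 *Obp56h*-/- libraries, with adjusted p between 0.0517 and 0.337. *tra* was lost without any 1 of these or of the 2 *CSB* female libraries, with adjusted p between 0.0505 and 0.155, and also with DESeq2 (0.0553) and with scaling by library size alone (0.0553). Each fit without an *Obp56h*-/- library leaves 1 library in that group. Fewer of all genes tested also passed in these fits than as reported. The log2 fold changes kept their sign in all 18 alternatives, from -0.60 to -0.41 for *Sxl*, -0.69 to -0.44 for *tra*, -0.42 to -0.29 for *fru* and 0.24 to 0.38 for *dsx*. Without replicate 1 of *CSB* females and of *CSB* males, the libraries that stood apart, *Sxl* was at -0.60 (adjusted p = 0.00138), *tra* at -0.69 (0.00607), *fru* at -0.40 (0.0152) and *dsx* at 0.27 (0.0660).

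**Figure D4:**
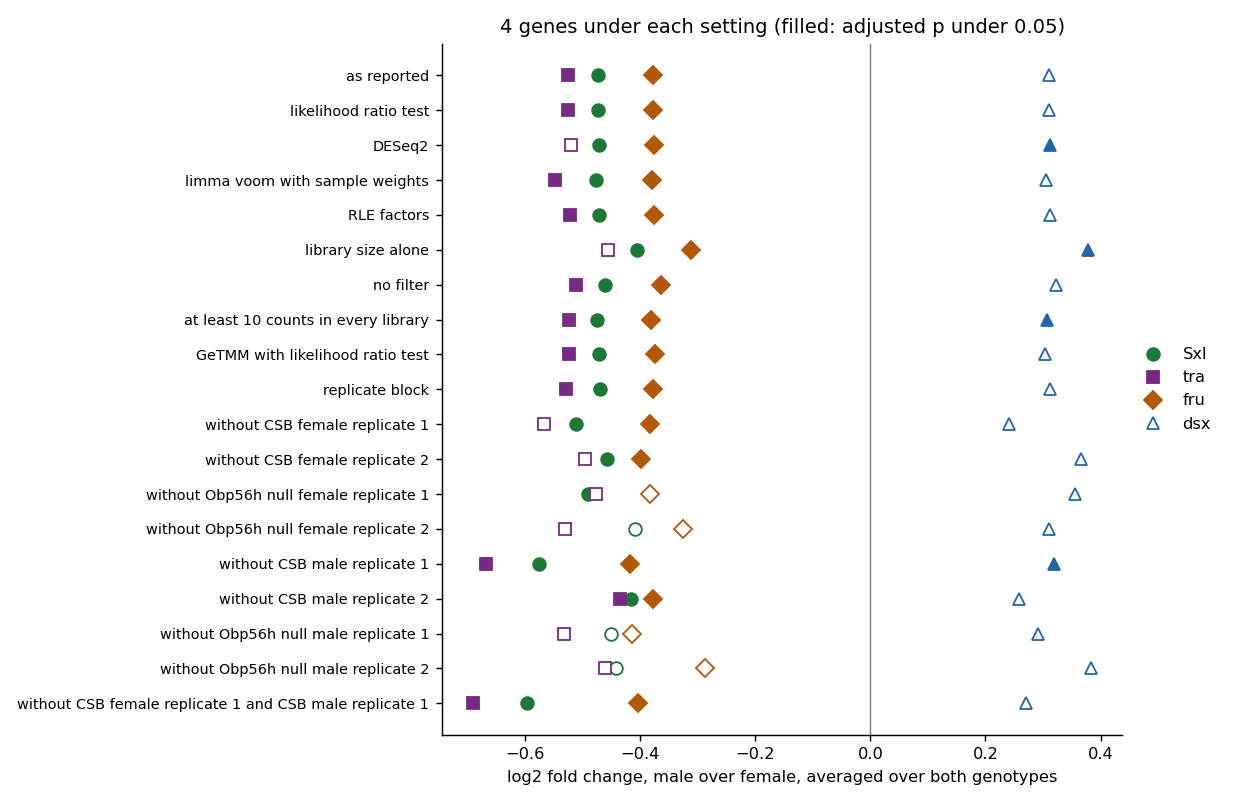
Log2 fold change of males over females, averaged over both genotypes (horizontal axis), for *Sxl*, *tra*, *fru* and *dsx* as reported and under 18 other settings (rows); Obp56h null stands for *Obp56h*-/-. Filled points have an adjusted p under 0.05. *Sxl*, *tra* and *fru* stay below 0 and *dsx* above 0 in every row, and in the 4 rows without an *Obp56h*-/- library only *Sxl*, in 1 row, is filled.

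The design also asks whether deletion of *Obp56h* changed these genes. None of the 10 passed edgeR's test in females, where 1.03% of all genes tested passed, or in males, where 0.502% passed. None passed on average over the sexes, where 1.93% of all genes tested passed. At an unadjusted p under 0.05 there were 0 of 10 in each. Of all genes tested, 10.7% were so in females, 9.15% in males and 18.6% on average. The likelihood ratio test called 0 as well, against 2.13%, 1.25% and 8.45% of all genes tested in females, in males and on average. DESeq2 also called 0, against 1.74%, 0.887% and 6.29%, as did limma's voom, against 0.968%, 0.628% and 1.96%. Leaving out *dsf*, whose interval was wider, the 95% intervals of the other 9 genes in females lay between -0.46 and 0.87 on the log2 scale, and in males between -0.54 and 0.73. The median absolute log2 fold change of the 10 genes was 0.14 in females and 0.15 in males, against 0.22 and 0.21 for all genes tested.

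*ix* was the only one of the 10 whose 4 *Obp56h*-/- and 4 *CSB* libraries did not overlap, at 6.48 to 7.75 CPM against 4.97 to 6.03 CPM, and 8.65% of all genes tested were so separated. Its log2 fold change was 0.39 (SE 0.23) in females and 0.26 (SE 0.22) in males, and 0.32 on average (SE 0.16, adjusted p = 0.289, edgeR). *Sxl* differed by 0.20 on average (95% interval -0.03 to 0.42), *dsx* by 0.19 (-0.03 to 0.41) and *fru* by 0.16 (-0.04 to 0.36), none of which passed. In the same contrast the neuronal genes *elav* and *nSyb* differed by 0.18 and 0.25, and the 4 head markers had a median of 0.11. None of these markers passed either. Their part in these values was not tested.

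*dsf* had the largest genotype value in females, -0.97 (SE 0.50, adjusted p = 0.496, edgeR), with *CSB* female replicate 1 far above replicate 2. Over 19 alternatives the value lay between -1.76, without *CSB* female replicate 2, and 0.34, and 17 of them kept its sign. The fit without *CSB* female replicate 2 leaves that group with replicate 1 alone, a library that stood apart. That fit gave the only call for any of the 10 genes in a genotype comparison under any setting. *her* was at -0.13 in females and 0.26 in males. The difference between the sexes' genotype effects was tested as an interaction, in which none of the 10 genes passed, against 0.0369% of all genes tested. At an unadjusted p under 0.05 there were 0 of the 10, against 3.05%. For *her* the interaction was -0.39 (SE 0.22), and the adjusted p of all 10 genes was at 0.9999.

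**Figure D5:**
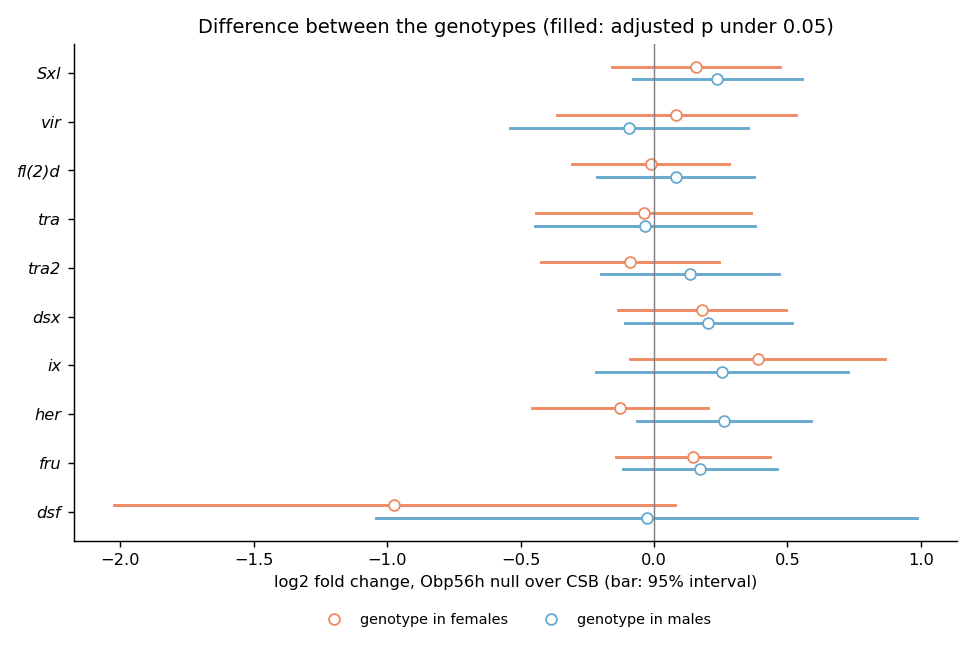
Log2 fold change of *Obp56h*-/- (null) over *CSB* with 95% intervals (horizontal axis) for the 10 genes in females and in males. All points are open, as none has an adjusted p under 0.05, all 20 intervals include 0, and *dsf* has the widest.

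Another 44 genes of the pathway, in 7 lists, were examined in the same fits, and 41 of them were tested. In the genotype comparisons within females and within males, 0 of these passed, against 1.03% and 0.502% of all genes tested. Between the sexes, averaged over both genotypes, 3 were higher and 5 lower in males, against 6.74% of all genes tested that passed. The lists include DSX targets and sex-biased head genes, so their share of calls was partly set by how they were drawn. The median log2 fold change of all genes tested was -0.004. The 6 tested X-linked signal genes and their partners, the 6 proteins that write or read methylated adenosine, the 6 splicing proteins of the SR family and their kinases and the 4 FRU partners held 0 calls between the sexes.

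*msl-2*, which encodes the male-limiting protein of dosage compensation and is repressed by SXL in females, was higher in males. It was at 23.8 and 35.6 CPM in *CSB* females, 34.5 and 38.3 CPM in *Obp56h*-/- females, 55.4 and 46.3 CPM in *CSB* males and 52.6 and 47.2 CPM in *Obp56h*-/- males. The sexes did not overlap, and the log2 fold change was 0.61 (SE 0.13, adjusted p = 0.00474, edgeR), opposite in sign to that of *Sxl*. Within genotypes it was 0.76 in *CSB* (adjusted p = 0.0259) and 0.45 in *Obp56h*-/- (adjusted p = 0.265).

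Of the 6 tested partners and targets of DSX, 3 fell in males, all of them yolk protein genes of the fat body. The log2 fold change was -8.08 for *Yp1*, -8.27 for *Yp2* and -7.44 for *Yp3* (adjusted p at most 3.8e-06, edgeR). By genotype it was -5.72 in *CSB* and -10.45 in *Obp56h*-/- for *Yp1*, -6.21 and -10.33 for *Yp2*, and -6.04 and -8.84 for *Yp3*. *CSB* male replicate 1 differed from the other males here, with 397 CPM of *Yp1* against 4.60 to 11.8 CPM. The same library had the highest *tra* and the lowest *dsx* among males, and the part of its yolk protein reads in these values was not tested. Without it the log2 fold change between the sexes was -0.67 for *tra* and 0.32 for *dsx*.

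Among 10 courtship and sex-biased head genes, *Cyp4d21*, a cytochrome P450, rose in males by 3.25 and *sxe2*, a lipase-like gene, by 2.84 on the log2 scale. *fit*, a female-biased fat body gene, was lower in males by a log2 fold change of -4.32, and *to*, known from the fat body of male heads, by -1.57 (adjusted p of these 4 genes at most 9.48e-08, edgeR). The counts of *to* and *sxe2* were the same in both *CSB* female libraries, 322 and 890 reads, and these values enter both folds. In *Obp56h*-/- flies alone, which leave those libraries out of the fold, it was -2.06 for *to* and 2.73 for *sxe2*.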

How the data were processed

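RNA was sequenced from heads in 8 libraries, 2 for each sex and genotype. The authors trimmed and filtered the reads, aligned them with GSNAP to *D. melanogaster* release 6, counted unique alignments per gene with Subread and deposited these counts with gene lengths and no normalization. Groups came from the labels of the libraries. Whether pools came from separate cultures is not stated, so p-values measure the spread between these samples only, and with 2 replicates per group precision is limited by their number. All count columns were used.

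The tests used edgeR 4.0.16 under R 4.3.3 (filterByExpr with a smallest count of 10, TMM, 1 quasi-likelihood model of 4 groups, Benjamini-Hochberg adjustment over 13536 genes, threshold 0.05), after a trial on simulated data. CPM values are TMM-scaled. Alternatives were a likelihood ratio test, DESeq2 1.42.0, voom in limma 3.58.1, other scaling and filters, GeTMM, a replicate block, the compared groups alone, and libraries left out. All 10 genes are named whatever their values. Other pathway genes are named where they passed, with *msl-2* and genes that check labels. The genes and lists were chosen with earlier results of these data known. Positions are from Ensembl release 115 (BDGP6). Python 3.11.15 and matplotlib 3.10.9 drew the figures.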

Additional observations from a re-analysis of the deposited data

How the results depend on the processing

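Over 1300 values of the 10 genes recomputed under alternatives, 1267 kept their side of the threshold, 15 lost the call, 18 gained it and 0 called values changed sign; of 1228 values past the threshold neither as reported nor in the alternative, 89 changed sign. Of the 10 genes, those past the threshold in *CSB* between the sexes numbered 0 as reported, 2 with DESeq2 (*Sxl* and *fru*), 1 without both *CSB* replicates 1 (*Sxl*), and 0 to 2 when 1 library was left out (*Sxl* and *tra* without *CSB* male replicate 1). In *Obp56h*-/- they numbered 0 as reported, 1 with DESeq2, 3 with limma's voom, 1 with the compared groups alone, 1 without both *CSB* replicates 1, and 0 to 1 when 1 library was left out (without *CSB* male replicate 1 or 2). Averaged over genotypes they numbered 3 as reported and 0 to 4 when 1 library was left out (with *dsx* as the fourth, without *CSB* male replicate 1). For genotype in females they numbered 0 as reported and 0 to 1 when 1 library was left out (*dsf*). Calls over all genes moved with the setting too. In *Obp56h*-/- they were 3.19% as reported, 3.72% with DESeq2, 8.58% with voom and 7.48% with the compared groups alone. In *CSB* they were 2.9% as reported and 3.49% with DESeq2. Without *CSB* male replicate 1 they rose between the sexes in each genotype and on average. Without both *CSB* replicates 1 they fell in *CSB* and rose in *Obp56h*-/-. The cause was not tested. The labels do not say whether the replicate numbers pair the samples. The deviations of same-numbered samples correlated at 0.533 between *CSB* females and *CSB* males and at -0.0122 to 0.0880 between other groups. With a replicate block 3 of the 10 genes passed between the sexes on average, against 7.31% of all genes tested. In the other comparisons 0 passed. The shares of all genes there included 3.35% for sex in *CSB*, 3.55% for sex in *Obp56h*-/-, 3.87% for genotype averaged over sexes and 0.133% for the interaction. The block moved the calls over all genes from 140 to 222 in females and from 68 to 128 in males.

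Calls over all genes ranged by setting from 66 to 529 for genotype in females (140 as reported), 28 to 769 in males (68), 155 to 1649 averaged over sexes (261), 148 to 957 for sex in *CSB* (393), 196 to 1162 in *Obp56h*-/- (432), 611 to 1505 averaged over genotypes (913) and 1 to 214 for the interaction (5). Scaling by library size alone set the median log2 fold change of all genes at -0.14 in the genotype comparisons. Depth limits *dsf* and *ix* most, with as few as 35 and 54 reads.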

Other observations

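The deposited counts of *to* and *sxe2*, genes of different size and location, were the same in both *CSB* female libraries, 322 and 890 reads for each gene. In the other 6 libraries they differed, for example 214 against 5897 reads in *Obp56h*-/- male replicate 1 and 1005 against 979 reads in *Obp56h*-/- female replicate 1. This was noticed after the values were seen.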
